A study of Homo sapiens with 9 samples.

Results

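Semaphorins, the plexins that receive them and the neuropilins that act as their co-receptors were followed in a human breast cancer cell line after knockdown of AHR, the gene of the aryl hydrocarbon receptor (AhR). Members were taken by a rule on gene symbols, which was chosen with earlier results of these data known. The rule takes the semaphorins of classes 3 to 7, the plexins of types A, B, C and D, NRP1 and NRP2. This gave 31 genes of the 60649 listed, namely 20 semaphorins, 9 plexins and 2 neuropilins, and 29 of them passed the filter on low counts. The other two, SEMA4A with 0 to 3 reads per library and SEMA5B with 0 to 1, were not tested.

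Semaphorins are secreted or membrane-bound ligands first known for steering growing axons, and tumor cells use the same system in migration, vessel growth and contact with nerve and immune cells. Class 3 semaphorins are secreted and mostly need a neuropilin to reach a plexin, whereas the membrane-bound classes 4 to 7 bind plexins directly. An engaged plexin acts through its cytoplasmic part on small GTPases and so changes adhesion and the actin skeleton. AhR is a ligand-activated transcription factor that binds DNA with its partner ARNT.

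MDA-MB-231, an established human triple-negative breast cancer line, was transduced with lentiviral vectors in all 3 groups. The control libraries carried pLKO-GFP, which the study used as a non-targeting control, and the others carried 1 of 2 short hairpin RNAs against AHR, labelled shAHR#2 and shAHR#3, with 3 libraries in each group. Every library has the treatment label "proliferation", and per the study's methods the puromycin-resistant cells were pooled, so that a group is a selected population and not 1 clone. No label ties the replicates to separate cultures, so p-values measure only the spread between these libraries, which may be technical.

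Total counts were between 15991396 and 20374460 reads per library, and the replicates of a group differed beyond sampling noise (chi-square between 1.74 and 3.97 for each degree of freedom). AHR itself was counted at 114, 118 and 121 CPM (counts scaled by TMM to a library of 1000000) in the control libraries, at 42.5, 40.4 and 41.9 with shAHR#2 and at 46.3, 52.1 and 44.5 with shAHR#3. The log2 fold change was -1.50 with shAHR#2 and -1.31 with shAHR#3. Of 7 epithelial markers, EPCAM, CDH1, KRT8, KRT18 and KRT19 had more than 3 reads in every library while KRT5 and KRT14 did not, and PGR had no read at all. Summed over the 7, the range over libraries was 677 to 713 CPM in the control group, 755 to 783 in shAHR#2 and 859 to 913 in shAHR#3. KRT19 (means 99.8, 171 and 122 CPM) and CDH1 (0.909, 1.80 and 4.16) were called higher with both constructs. KRT8 and KRT18 were called higher with shAHR#3 only, and EPCAM with neither. The 3 endothelial markers summed to 2.15 to 2.71, 10.4 to 12.7 and 12.0 to 13.3 CPM in the same order, almost wholly through PECAM1, with CDH5 and VWF at 0 in the control libraries. The 3 neural markers summed to 143 to 145, 133 to 135 and 116 to 127 CPM, mostly through MBP. Of genes known from leukocytes, CD3E was at 0 throughout. PTPRC was between 0.0565 and 0.200 CPM in the control libraries, 0.886 and 1.77 with shAHR#2 and 0.716 and 1.46 with shAHR#3, and LYZ between 0.452 and 0.658, 2.89 and 3.16, and 1.12 and 2.10 CPM, with no overlap of control and knockdown for either gene. ESR1 had 0 to 4 reads per library, while ERBB2 was between 60.0 and 75.7 CPM. The mesenchymal markers VIM, CDH2, FN1 and ZEB1 together were at 3562 to 3590 CPM, 6379 to 6564 and 5172 to 5218 in the same order. Most of this was VIM and FN1, and CDH2 had 2 to 8 reads per library. The part of all these markers in the results on the family was not tested, and in these bulk libraries fewer cells of a type cannot be told apart from less RNA per cell.

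The filter on low counts admitted SEMA6A and SEMA6D only through the control group: without it, fewer than 3 libraries reached the CPM cutoff. Such genes could enter only as lower, so they are left out of the counts against the control and get no test there. The shares over all genes that follow had no such genes left out. With shAHR#2, 24 of the other 27 members passed an adjusted p of 0.05 in edgeR's quasi-likelihood test, 14 higher and 10 lower, against 65.8% of all 14274 genes tested (32.6% higher and 33.2% lower). With shAHR#3, 21 members passed, 15 higher and 6 lower, against 54.4% of all genes (26.9% higher, 27.5% lower). A log2 fold change of at least 1 in either direction was reached by 8 members with shAHR#2 (4 higher, 4 lower), which is 29.6% of the 27 against 11.8% of all genes (5.95% higher, 5.90% lower). With shAHR#3, 7 members did so (5 higher, 2 lower), or 25.9% against 6.73% (4.32% higher, 2.42% lower). The median log2 fold change of the 27 was 0.24 with either construct, and that of all genes was -0.0032 and -6.9e-05. Both comparisons use the same 3 control libraries, so their values are given side by side and are not independent of each other.

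**Figure D1:**
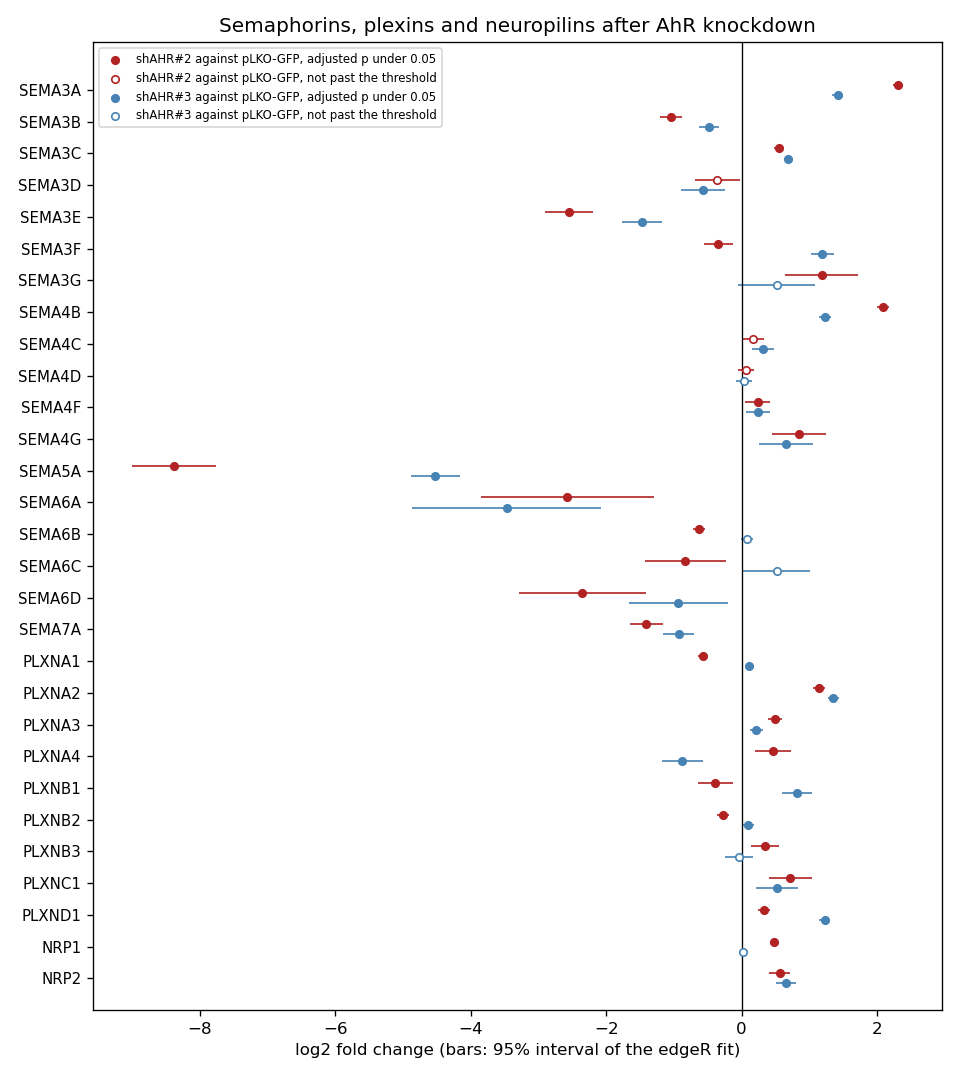
Log2 fold change (x axis) of the 29 tested members (y axis) with shAHR#2 in red and shAHR#3 in blue, each against pLKO-GFP. Points are estimates of the edgeR fit, bars their 95% intervals, and open points did not pass an adjusted p of 0.05. For SEMA5A and SEMA6A the bars are narrower than the exact counting intervals and understate the error. SEMA5A lies farthest from 0 at -8.39 and -4.53, and PLXNA1, PLXNB1, PLXNB2, SEMA3F and PLXNA4 have filled points on opposite sides of 0. SEMA6A and SEMA6D are drawn from the same fit although the filter admitted them only through the control group.

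The largest change was a near complete loss of SEMA5A. This gene (ENSG00000112902.12; chr5:9035033-9546075, minus strand, GRCh38) encodes a membrane-bound semaphorin with thrombospondin repeats that binds plexin B3. It was counted at 259, 302 and 339 reads in the control libraries, at 0, 0 and 2 with shAHR#2 and at 13, 14 and 13 with shAHR#3. In CPM this was 14.6, 15.1 and 17.2, then 0, 0 and 0.127, then 0.669, 0.716 and 0.635. No library of a knockdown group came near the control range, and the shAHR#3 libraries all lay above the shAHR#2 libraries. The summed counts gave a level 392-fold lower with shAHR#2 (95% exact counting interval 108 to 3239, counting error only) and 23.3-fold lower with shAHR#3 (17.0 to 32.8). The fitted log2 fold changes were -8.39 (SE 0.31, adjusted p = 5.95e-24) and -4.53 (SE 0.18, adjusted p = 2.36e-22). The first of these rested on the 2 reads of shAHR#2 replicate 3: it was -11.2 without that library and -7.79 without shAHR#2 replicate 1, with the call kept in both cases. The SEs of both fitted values are smaller than counting error alone, so the wider counting intervals are the measure of precision here.

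A neighbouring transcript was also lower in counts. SNHG18 (ENSG00000250786.2), a long noncoding RNA that hosts a small nucleolar RNA, begins on the opposite strand at chr5:9546170-9550725, so that 94 bases separate the annotated starts of the 2 genes. It was chosen for description after its values were seen. SNHG18 had 65, 108 and 93 reads in the control libraries, 0, 0 and 0 with shAHR#2 and 2, 4 and 1 with shAHR#3. Set against the limit of 3 counts over the group that a count of 0 allows, this is at least 77.2-fold lower for shAHR#2. With shAHR#3 its summed counts were 39.3-fold lower (exact counting interval 18.8 to 98.7). The fitted log2 fold change was -5.21 (SE 0.37, which is smaller than counting error alone). No p is given, because SNHG18 too reached the filter's cutoff through the control libraries. No other member had a tested gene that starts on the opposite strand within 1000 bases of its own start. The window around the SEMA5A start is shown because it holds both starts. It is the RefSeq promoter sequence (GRCh38.p14, chr5:9546026-9546325, minus strand, 250 bases before to 50 after the start), of which 81.0% is G or C and which holds 39 CpG dinucleotides. Capitals mark the 94 bases between the starts of SNHG18 (to the left, transcribed leftward) and SEMA5A (to the right):
SEMA5A: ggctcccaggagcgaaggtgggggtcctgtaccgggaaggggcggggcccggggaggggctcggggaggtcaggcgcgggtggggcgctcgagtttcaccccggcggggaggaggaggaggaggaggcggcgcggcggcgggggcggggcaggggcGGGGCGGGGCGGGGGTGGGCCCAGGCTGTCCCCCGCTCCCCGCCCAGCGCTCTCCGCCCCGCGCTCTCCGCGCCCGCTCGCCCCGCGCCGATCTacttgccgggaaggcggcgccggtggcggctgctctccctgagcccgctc

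Genes around SEMA5A and SNHG18 were lower by smaller amounts. Of the 19 other tested genes whose starts lie within 5 Mb of the SEMA5A start, 15 were lower and 0 higher with shAHR#2 past an adjusted p of 0.05 in edgeR's test, with a median log2 fold change of -0.52 and a range from -1.14 to 0.65. With shAHR#3, 16 were lower and 0 higher, the median was -0.37 and the range went from -1.39 to 0.39. Over all genes 33.2% were lower and 32.6% higher with shAHR#2, and 27.5% lower and 26.9% higher with shAHR#3. Among the 19, the number higher was also 0 with either construct at an unadjusted p under 0.05 and in DESeq2. The same direction held along the chromosome: among the 655 other tested genes of chromosome 5 the median was -0.48 with 84.1% below 0 with shAHR#2, and -0.25 with 79.5% below 0 with shAHR#3. The smaller drop shared by the chromosome moves with the result on SEMA5A, and its part in that result was not tested.

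**Figure D2:**
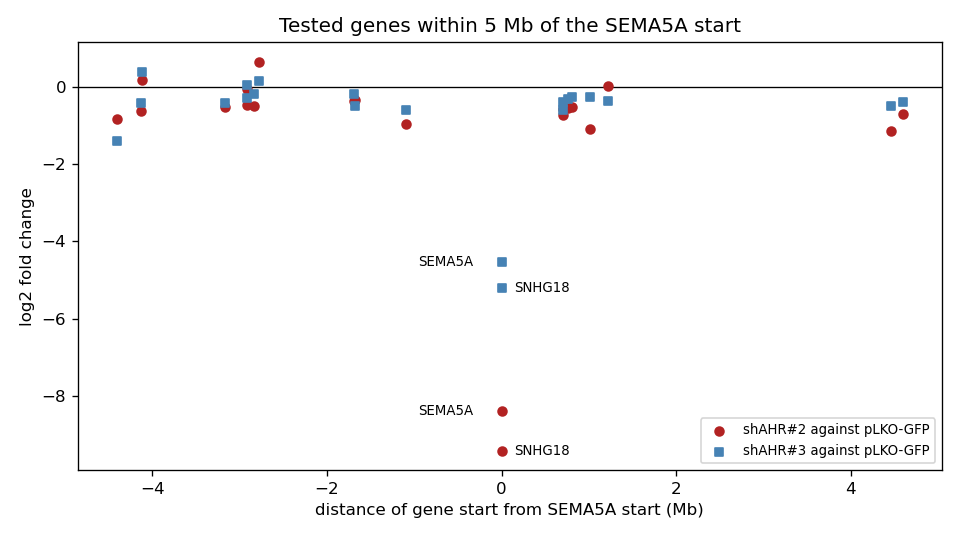
Log2 fold change (y axis) of each tested gene within 5 Mb of the SEMA5A start against the distance of its own start from that of SEMA5A in Mb (x axis), with shAHR#2 as red circles and shAHR#3 as blue squares. SEMA5A and SNHG18 lie between -9.42 and -4.53, and the 19 other genes between -1.39 and 0.65. The -9.42 is the fitted value of SNHG18 with shAHR#2, where its count was 0 in every library, so its size is not measured.

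Of SEMA5A and the membrane-bound semaphorins SEMA6B, SEMA6C and SEMA7A, 4 of 4 fell with shAHR#2 and 2 with shAHR#3, and 0 rose with either (at an unadjusted p under 0.05, 0 with shAHR#2 and 1 with shAHR#3, and 0 with either in DESeq2). Over all genes 33.2% were lower and 32.6% higher with shAHR#2, and 27.5% lower and 26.9% higher with shAHR#3. SEMA7A (ENSG00000138623.10), a lipid-anchored ligand of plexin C1 and of beta-1 integrins, stood at 12.0, 11.8 and 11.6 CPM in the control libraries, at 4.72, 3.72 and 4.87 with shAHR#2 and at 5.97, 5.73 and 6.84 with shAHR#3. The 3 groups did not overlap, with the control highest and shAHR#2 lowest. Its log2 fold change was -1.40 (SE 0.12, adjusted p = 1.29e-12) with shAHR#2 and -0.93 (SE 0.11, adjusted p = 5.48e-09) with shAHR#3. SEMA6A (ENSG00000092421.17), a ligand of plexins A2 and A4 that lies on the long arm of chromosome 5, had 14, 11 and 11 reads in the control libraries, 3, 1 and 1 with shAHR#2 and 1, 2 and 0 with shAHR#3. Its summed counts were 6.27-fold lower with shAHR#2 (exact counting interval 2.45 to 20.5) and 12.4-fold lower with shAHR#3 (3.92 to 63.0).

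SEMA6D (ENSG00000137872.17), a ligand of plexin A1, had 22, 39 and 17 reads in the control libraries, 3, 8 and 2 with shAHR#2 and 17, 15 and 10 with shAHR#3. In CPM the shAHR#2 libraries all lay below the control libraries, and the shAHR#3 libraries overlapped both other groups. The log2 fold change was -2.35 (SE 0.46) with shAHR#2, and -3.16 without shAHR#2 replicate 2. With shAHR#3 it was -0.93 (SE 0.36), and -0.56 without pLKO-GFP replicate 2. SEMA6C (ENSG00000143434.16) was at 1.92, 2.60 and 1.42 CPM in the control libraries, at 1.66, 1.09 and 0.506 with shAHR#2 and at 2.88, 2.66 and 2.98 with shAHR#3. The control and shAHR#2 libraries overlapped, and the shAHR#3 libraries lay above both. Its fall with shAHR#2 (log2 fold change -0.83, SE 0.30, adjusted p = 0.0146) was lost without pLKO-GFP replicate 2 (-0.57, adjusted p = 0.133) or shAHR#2 replicate 3 (-0.50, adjusted p = 0.143), and the value with shAHR#3 was 0.52 (SE 0.24, adjusted p = 0.0695), which passed without pLKO-GFP replicate 2 (0.77, adjusted p = 0.0192). SEMA6B (ENSG00000167680.17), a ligand of plexin A4, was the most abundant gene of these classes at 97.3 ± 4.52 CPM (SD, n = 3) in the control group. It fell to 63.0 ± 3.27 with shAHR#2 (log2 fold change -0.63, SE 0.05, adjusted p = 1.08e-14) and was at 103 ± 6.13 with shAHR#3 (0.08, SE 0.04, adjusted p = 0.0964), which passed as higher without shAHR#3 replicate 2 (0.11, adjusted p = 0.0378).

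The secreted class 3 semaphorins split into opposite directions: of 7, 3 rose and 3 fell with each construct. Of all genes, 32.6% rose and 33.2% fell with shAHR#2, and 26.9% rose and 27.5% fell with shAHR#3. SEMA3A (ENSG00000075213.11), the founding repellent of this class, which signals through NRP1 and type A plexins, stood at 47.6, 48.2 and 43.3 CPM in the control libraries, at 234, 228 and 229 with shAHR#2 and at 125, 126 and 122 with shAHR#3. The 3 groups were far apart beside their spread. This was 4.97-fold higher with shAHR#2 (log2 fold change 2.31, SE 0.04, adjusted p = 5.57e-35) and 2.68-fold higher with shAHR#3 (1.42, SE 0.04, adjusted p = 4.47e-27). SEMA3C (ENSG00000075223.14), a class 3 ligand that can act as an attractant and is bound by either neuropilin, was at rank 2 of abundance per length in the control group. It was at 247, 261 and 256 CPM in the control libraries, 379, 371 and 369 with shAHR#2 and 422, 433 and 378 with shAHR#3, so that both knockdown groups lay above the control. The log2 fold change was 0.55 (SE 0.03, adjusted p = 7.14e-17) and 0.69 (SE 0.03, adjusted p = 1.50e-19).

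SEMA3E (ENSG00000170381.14), a ligand that binds plexin D1 without a neuropilin, moved the opposite way. Its level was 13.4, 12.6 and 11.0 CPM in the control libraries, 2.31, 2.38 and 1.58 with shAHR#2 and 5.92, 4.45 and 2.98 with shAHR#3. Each group was separate from the others, with shAHR#2 lowest. The log2 fold change was -2.55 (SE 0.18, adjusted p = 1.78e-15), a 5.86-fold drop, with shAHR#2 and -1.47 (SE 0.15, adjusted p = 6.58e-11) with shAHR#3. SEMA3B (ENSG00000012171.20), a class 3 semaphorin known as a candidate tumor suppressor in lung cancer, was at 31.8, 29.7 and 30.3 CPM in the control libraries, 14.0, 15.6 and 14.9 with shAHR#2 and 20.3, 20.5 and 24.7 with shAHR#3. Again the groups did not overlap and shAHR#2 was lowest (log2 fold change -1.05, SE 0.08, adjusted p = 3.36e-14, against -0.48, SE 0.07, adjusted p = 5.98e-07).

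SEMA3F (ENSG00000001617.12), the class 3 ligand that prefers NRP2, differed in direction between the constructs. It was at 13.8, 18.0 and 14.9 CPM in the control libraries, 10.6, 14.0 and 12.6 with shAHR#2 and 35.7, 32.5 and 39.0 with shAHR#3. The control and shAHR#2 libraries overlapped, whereas every shAHR#3 library exceeded every other. The rise with shAHR#3 was 2.29-fold (log2 fold change 1.20, SE 0.09, adjusted p = 1.43e-14). The fall with shAHR#2 (-0.34, SE 0.10, adjusted p = 0.00423) was lost without pLKO-GFP replicate 2 (-0.22, adjusted p = 0.0803) or shAHR#2 replicate 1 (-0.23, adjusted p = 0.0790). SEMA3G (ENSG00000010319.7), another ligand of NRP2, was low, at 0.734, 1.30 and 0.962 CPM in the control libraries, 2.31, 2.44 and 2.15 with shAHR#2 and 1.23, 1.54 and 1.56 with shAHR#3. The shAHR#2 libraries lay above the rest, and those of shAHR#3 overlapped the control. It rose with shAHR#2 (log2 fold change 1.19, SE 0.27, adjusted p = 0.000183), and with shAHR#3 the value was 0.52 (SE 0.28, adjusted p = 0.117). SEMA3D (ENSG00000153993.14) was at 5.15 ± 0.889 CPM, 4.05 ± 0.189 and 3.48 ± 0.487 (SD, n = 3) in the 3 groups. It fell with shAHR#3 (-0.57, SE 0.16, adjusted p = 0.00264) and missed the threshold with shAHR#2 (-0.36, SE 0.16, adjusted p = 0.0510).

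**Figure D3:**
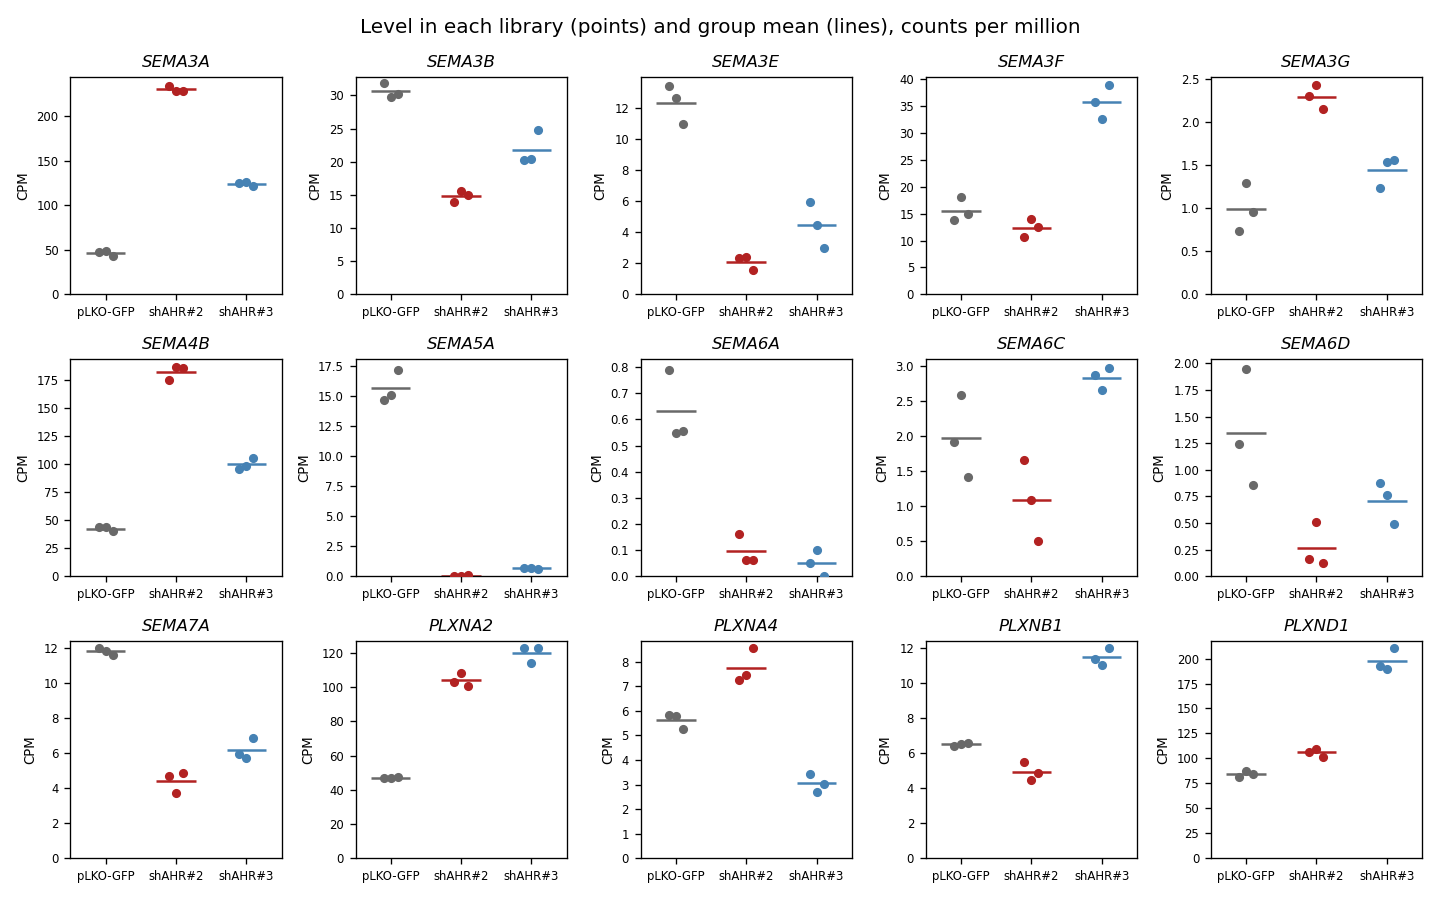
Level in CPM (y axes, from 0) of the 15 members with a log2 fold change of at least 1 in any comparison, for the libraries of pLKO-GFP (grey), shAHR#2 (red) and shAHR#3 (blue). Points are libraries and lines are group means. SEMA3A and SEMA4B are highest with shAHR#2, SEMA5A is at or near 0 in both knockdown groups, and SEMA3F, PLXNB1 and PLXND1 are highest with shAHR#3.

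Neighbouring class 3 genes moved in opposite directions. SEMA3C, SEMA3E, SEMA3A and SEMA3D follow each other on chromosome 7, all on the minus strand. From SEMA3E (chr7:83363238-83649139) to SEMA3A (chr7:83955777-84492724) the gap is 307 kb with 0 tested genes in it, and from SEMA3A to SEMA3D (chr7:84995553-85187056) it is 503 kb, also with 0. Along this stretch the log2 fold changes with shAHR#2 were 0.55 for SEMA3C, -2.55 for SEMA3E, 2.31 for SEMA3A and -0.36 for SEMA3D. With shAHR#3 they were 0.69, -1.47, 1.42 and -0.57. On chromosome 3, SEMA3F (chr3:50155045-50189075) and SEMA3B (chr3:50267558-50277546) lie 78.5 kb apart on the plus strand with 1 tested gene between them, and with shAHR#3 they changed by 1.20 and -0.48.

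Class 4 semaphorins, which are membrane-bound and mostly bind type B plexins, were higher or did not pass: of 5 tested, 3 rose with shAHR#2 and 4 with shAHR#3, and 0 fell (0 also at an unadjusted p under 0.05 and in DESeq2). Among all genes 32.6% rose and 33.2% fell with shAHR#2, and 26.9% rose and 27.5% fell with shAHR#3. SEMA4B (ENSG00000185033.14) was at 43.8, 44.0 and 40.1 CPM in the control libraries, 175, 186 and 185 with shAHR#2 and 95.4, 98.7 and 106 with shAHR#3. As for SEMA3A, the 3 groups were separate and shAHR#2 was highest. SEMA4B was 4.27-fold higher (log2 fold change 2.10, SE 0.04, adjusted p = 1.00e-31) with shAHR#2 and 2.35-fold higher with shAHR#3 (1.23, SE 0.05, adjusted p = 2.33e-23). SEMA4G (ENSG00000095539.15), a ligand of plexin B2, was low at 1.96 ± 0.0724 CPM (SD, n = 3) and rose to 3.53 ± 0.527 and 3.11 ± 0.351 (log2 fold change 0.85, adjusted p = 0.000291, and 0.66, adjusted p = 0.00463). Its exons share 22.9% of their bases with MRPL43 on the opposite strand, which reached 942 reads in a library, and whether reads were counted by strand is not given in the sources used here. SEMA4F (ENSG00000135622.13) changed by 0.24 with either construct (adjusted p = 0.0191 and 0.0194), and each call could be lost. With shAHR#2 it missed the threshold without shAHR#2 replicate 3 (0.20, adjusted p = 0.0831), and with shAHR#3 in DESeq2 (adjusted p = 0.0546) and without shAHR#3 replicate 3 (0.22, adjusted p = 0.0631). SEMA4C (ENSG00000168758.11), a ligand of plexin B2, was at 17.6 ± 1.64 CPM in the control group, 19.9 ± 0.767 with shAHR#2 (log2 fold change 0.17, adjusted p = 0.0594) and 22.0 ± 0.754 with shAHR#3 (0.32, adjusted p = 0.000619). SEMA4D (ENSG00000187764.12), the ligand of plexin B1, was not called with either construct, at 41.3 ± 3.60, 43.4 ± 0.586 and 42.4 ± 1.84 CPM, with 95% intervals of the log2 fold change from -0.05 to 0.19 and from -0.08 to 0.15.

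Among the receptors, 6 of 9 plexins rose and 3 fell with shAHR#2, while 7 rose and 1 fell with shAHR#3. Of all genes, 32.6% rose and 33.2% fell with shAHR#2, and 26.9% rose and 27.5% fell with shAHR#3. PLXNA2 (ENSG00000076356.7), a receptor of class 3 semaphorins with neuropilins and of SEMA6A without them, was at 46.7, 46.8 and 47.2 CPM in the control libraries, 103, 108 and 100 with shAHR#2 and 123, 114 and 123 with shAHR#3. The 3 groups did not overlap, and shAHR#3 was highest. The log2 fold change was 1.15 (SE 0.04, adjusted p = 1.53e-23) and 1.35 (SE 0.04, adjusted p = 9.18e-26). PLXND1 (ENSG00000004399.13), the receptor of SEMA3E, was at 81.4, 87.0 and 84.5 CPM, then 107, 109 and 102 with shAHR#2 and 192, 189 and 211 with shAHR#3. It rose 1.26-fold with shAHR#2 (0.33, SE 0.04, adjusted p = 1.11e-08) and 2.34-fold with shAHR#3 (1.23, SE 0.04, adjusted p = 2.13e-25).

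PLXNA1 (ENSG00000114554.12), a receptor of class 3 semaphorins and of SEMA6D, was at rank 3 of abundance per length in the control group. Its level was 330, 335 and 332 CPM in the control libraries, 220, 229 and 221 with shAHR#2 and 360, 339 and 377 with shAHR#3. It fell with shAHR#2 (log2 fold change -0.57, SE 0.03, adjusted p = 1.49e-18) and was slightly higher with shAHR#3 (0.11, SE 0.03, adjusted p = 0.00195). PLXNB1 (ENSG00000164050.13), the receptor of SEMA4D, had the same pair of directions at lower levels: 6.38, 6.54 and 6.58 CPM in the control libraries, 5.47, 4.49 and 4.87 with shAHR#2 and 11.4, 11.0 and 12.0 with shAHR#3. Its log2 fold change was -0.39 (SE 0.13, adjusted p = 0.00811) and 0.82 (SE 0.11, adjusted p = 4.01e-08). PLXNA4 (ENSG00000221866.9), a receptor of SEMA3A, SEMA6A and SEMA6B, went the other way. It stood at 5.82, 5.79 and 5.27 CPM in the control libraries, 7.24, 7.45 and 8.54 with shAHR#2 and 3.45, 2.71 and 3.03 with shAHR#3, with no overlap of the groups. The log2 fold change was 0.46 (SE 0.13, adjusted p = 0.00246) and -0.88 (SE 0.15, adjusted p = 4.86e-06).

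Changes of the remaining plexins were smaller. PLXNA3 (ENSG00000130827.6) was at 46.7 ± 1.62 CPM (SD, n = 3) in the control group and higher with both constructs (log2 fold change 0.49, adjusted p = 2.73e-11, and 0.22, adjusted p = 0.000207). PLXNC1 (ENSG00000136040.9), the receptor of SEMA7A, rose from 3.47 ± 0.133 to 5.72 ± 0.607 and 5.02 ± 0.556 CPM (0.72, adjusted p = 8.98e-05, and 0.53, adjusted p = 0.00357). PLXNB2 (ENSG00000196576.16) fell with shAHR#2 (-0.28, adjusted p = 5.14e-07) from 138 ± 3.27 to 114 ± 5.23 CPM. Its rise with shAHR#3 to 148 ± 11.9 (0.10, adjusted p = 0.0376) was lost in DESeq2 (adjusted p = 0.0861) and when pLKO-GFP replicate 1 or 3, shAHR#2 replicate 3 or shAHR#3 replicate 3 was left out (log2 fold change 0.08, 0.10, 0.10 and 0.03). PLXNB3 (ENSG00000198753.12), the receptor of SEMA5A, rose with shAHR#2 only (0.35, adjusted p = 0.00277, against -0.04, adjusted p = 0.746, with shAHR#3, and a difference between the constructs of -0.39, adjusted p = 0.00162). It shares 20.4% of its exon bases with SRPK3 on the same strand.

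The neuropilins, co-receptors of class 3 semaphorins and of vascular endothelial growth factors, were higher or not called (0 lower, also at an unadjusted p under 0.05 and in DESeq2). Lower genes made up 33.2% of all with shAHR#2 and 27.5% with shAHR#3. NRP1 (ENSG00000099250.18) was the most abundant member per length in the control group, at 605, 604 and 601 CPM, and stood at 841, 836 and 840 with shAHR#2 and 619, 612 and 612 with shAHR#3. The replicates of each group differed by little, and the shAHR#2 libraries were clearly above the rest. Its log2 fold change was 0.48 (SE 0.02, adjusted p = 1.37e-19) with shAHR#2 and 0.03 with shAHR#3 (95% interval -0.02 to 0.07, adjusted p = 0.381). NRP2 (ENSG00000118257.17) was at 19.3 ± 1.33 CPM (SD, n = 3) in the control group and rose to 28.4 ± 2.22 and 30.5 ± 1.88 (0.56, adjusted p = 3.57e-08, and 0.66, adjusted p = 8.35e-10).

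Ligands and receptors known to bind each other can be read side by side from these values. SEMA3E fell with both constructs while its receptor PLXND1 rose with both, and the same held for SEMA7A and PLXNC1. SEMA5A fell with both, and its receptor PLXNB3 was 0.35 and -0.04 on the log2 scale. SEMA3A rose with both constructs, and its co-receptor NRP1 rose with shAHR#2. SEMA6A had fewer reads with both, while its receptor PLXNA2 rose with both and PLXNA4 rose with shAHR#2 and fell with shAHR#3. SEMA4D was not called, and its receptor PLXNB1 fell with shAHR#2 and rose with shAHR#3.

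Levels can be compared between genes only per length, here as RPKM, the CPM divided by the length of all annotated exons in kb. In the control group the order was led by NRP1 (52.4 ± 0.169 RPKM, SD, n = 3), SEMA3C (41.8 ± 1.14), PLXNA1 (29.6 ± 0.244), SEMA6B (20.7 ± 0.959) and PLXNB2 (19.0 ± 0.450), followed by PLXND1 (8.82), SEMA4B (6.09), SEMA3B (5.31) and SEMA3A (5.01). Of these neighbours in the order, SEMA3B and SEMA3A overlapped between libraries and the others did not, while from rank 11 to rank 15 PLXNA2, SEMA3F, SEMA7A, SEMA4D and SEMA4C (2.82 to 3.39 RPKM) each overlapped the next. The lowest tested member was SEMA6A at 0.0580 ± 0.0126 RPKM. With shAHR#2, SEMA4B (26.0 ± 0.912 RPKM) and SEMA3A (24.9 ± 0.367) ranked 3 and 4, above PLXNA1 (19.9 ± 0.446). With shAHR#3, SEMA3C (67.4 ± 4.75 RPKM) exceeded NRP1 (53.3 ± 0.339), and PLXND1 (20.7 ± 1.23) was level with SEMA6B (21.9 ± 1.30) and PLXNB2 (20.3 ± 1.64). This order depends on the length used: per longest transcript NRP1 (104 RPKM) was above SEMA3C (84.4), and PLXND1 (28.6) above SEMA6B (25.7) and PLXNB2 (23.1). SEMA5A stood at rank 20 in the control group (1.27 ± 0.110 RPKM), at rank 30 with shAHR#2 and at rank 28 with shAHR#3.

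The make-up of each class shifted accordingly. The summed RPKM of class 3 semaphorins was 57.6 ± 1.55 in the control group, 92.4 ± 0.933 with shAHR#2 and 93.2 ± 4.02 with shAHR#3 (SD, n = 3). SEMA3A made up 8.70% ± 0.482 of it in the control group, 26.9% ± 0.236 with shAHR#2 and 14.4% ± 0.388 with shAHR#3, and SEMA3C 72.5% ± 0.783, 66.2% ± 0.386 and 72.2% ± 2.03. Class 4 semaphorins summed to 14.1 ± 0.363, 35.2 ± 1.04 and 23.6 ± 0.864 RPKM, of which SEMA4B held 43.3% ± 2.66, 74.0% ± 0.432 and 60.5% ± 0.964. For classes 5, 6 and 7 the sum was 25.6 ± 0.973, 14.8 ± 0.678 and 24.2 ± 1.45 RPKM, and SEMA6B held 80.7% ± 0.789, 90.5% ± 1.16 and 90.6% ± 0.148. Plexins summed to 67.9 ± 0.990, 63.6 ± 1.45 and 89.8 ± 5.10 RPKM. PLXNA1 went from 43.6% ± 0.411 of the plexin sum to 31.3% ± 0.0566 and 35.6% ± 0.310, PLXND1 from 13% ± 0.26 to 17.4% ± 0.540 and 23.0% ± 0.368, and PLXNA2 from 4.99% ± 0.0606 to 11.8% ± 0.273 and 9.66% ± 0.322. NRP1 held 96.0% to 97.4% of the neuropilin sum in every group.

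**Figure D4:**
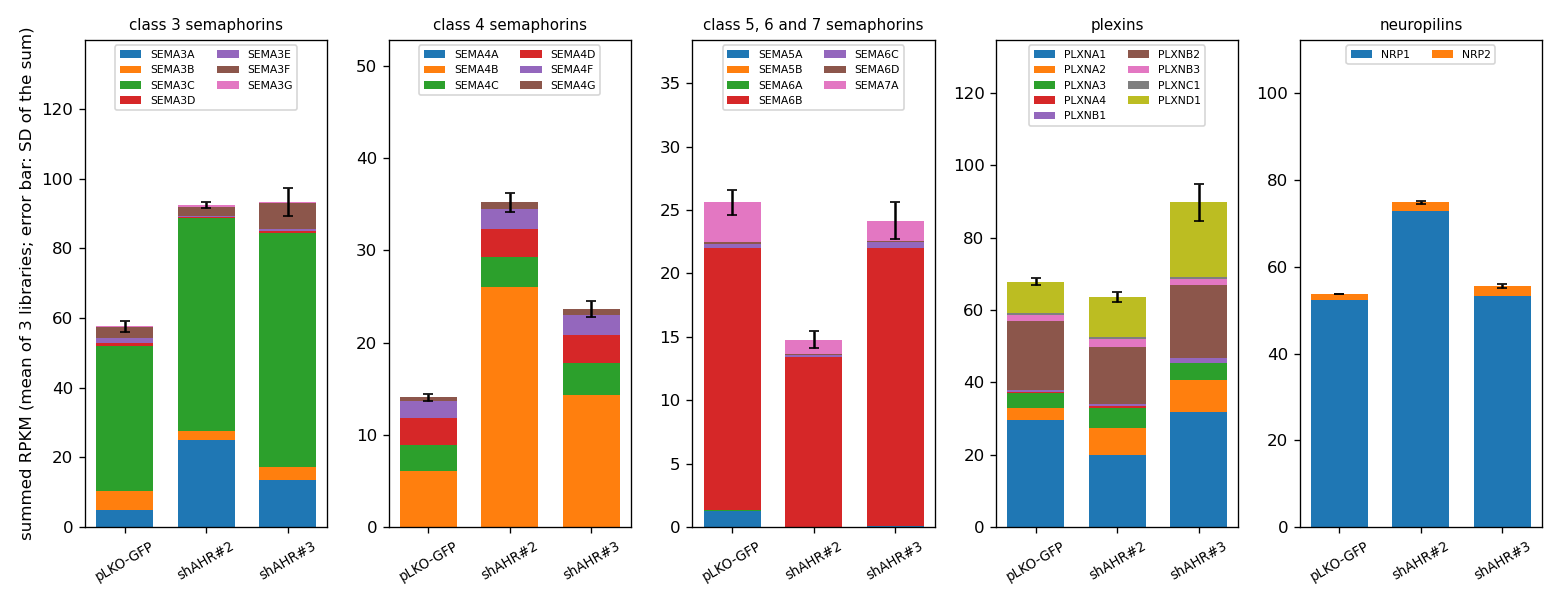
Summed RPKM (y axes, from 0) of each class of semaphorins, of the plexins and of the neuropilins in the 3 groups, stacked by gene. Bars are means of 3 libraries and error bars the SD of the sum. Class 3 and class 4 sums are higher in both knockdown groups than in the control group, mostly through SEMA3C, SEMA3A and SEMA4B, and the plexin sum is highest with shAHR#3.

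The constructs were also compared directly, as a check of how far the 2 knockdowns differ. Of 29 members, 21 differed between them, 14 higher and 7 lower with shAHR#3, against 42.3% of all genes (21.9% higher, 20.4% lower). A log2 difference of at least 1 was reached by 7 (24.1% of the 29), against 3.71% of all genes. The largest difference in a well counted gene was that of SEMA3F, 2.90-fold higher with shAHR#3 (log2 fold change 1.54, SE 0.09, adjusted p = 1.26e-16). SEMA3A, SEMA4B, SEMA3E, SEMA3B and SEMA7A changed the same way with both constructs, and each was nearer the control with shAHR#3 (differences of -0.89, -0.86, 1.08, 0.56 and 0.47 on the log2 scale). PLXND1 and PLXNA2 changed more with shAHR#3 (0.90 and 0.21). As for SEMA3F, for PLXNA4 (-1.33), PLXNB1 (1.20), PLXNA1 (0.68) and PLXNB2 (0.37) the constructs had called changes of opposite sign. The calls of SEMA3F with shAHR#2 and of PLXNB2 with shAHR#3 were lost in some alternatives, as given above. AHR itself was 0.19 higher with shAHR#3 than with shAHR#2 on the same scale (SE 0.05, adjusted p = 0.00283).

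Genes that act with the family were taken from a list of 62, written with earlier results of these data known, of which 47 were tested. With shAHR#2, 33 of these passed (19 higher, 14 lower), which is 70.2% against 65.8% of all genes, and with shAHR#3, 36 did (23 higher, 13 lower), or 76.6% against 54.4%. A log2 fold change of at least 1 was reached by 14.9% and 6.38% of the list, against 11.8% and 6.73% of all genes. The shares with shAHR#2 and that of large changes with shAHR#3 are near the background. NRCAM, an adhesion molecule that joins neuropilins in semaphorin receptor complexes, rose from 2.20 ± 0.216 CPM (SD, n = 3) to 28.5 ± 1.58 with shAHR#2 and 21.5 ± 1.91 with shAHR#3 (log2 fold change 3.69, adjusted p = 3.94e-26, and 3.29, adjusted p = 9.16e-24). PGF, placental growth factor, which shares neuropilins with the class 3 semaphorins, rose from 5.37 ± 1.00 to 55.9 ± 3.63 and 60.8 ± 3.36 CPM (3.38 and 3.51). KDR, the receptor of vascular endothelial growth factor that pairs with neuropilins, fell from 4.21 ± 0.0988 to 0.618 ± 0.0352 and 0.332 ± 0.242 CPM (-2.75 and -3.62). MET, a receptor tyrosine kinase that couples to type B plexins, rose from 359 ± 9.49 to 746 ± 13.1 and 425 ± 5.46 CPM (1.05 and 0.24), and MMP14, a membrane-bound protease that can release SEMA4D from the cell surface, from 347 ± 2.39 to 762 ± 10.1 and 412 ± 12.3 (1.14 and 0.25). Among the effectors, the small GTPases RHOD (8.18 ± 0.261, 3.40 ± 0.619 and 5.88 ± 0.528 CPM) and MRAS (7.56 ± 0.927, 3.27 ± 0.352 and 5.47 ± 0.936 CPM) fell with both constructs (-1.25 and -0.47 for RHOD, -1.22 and -0.48 for MRAS).

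**Figure D5:**
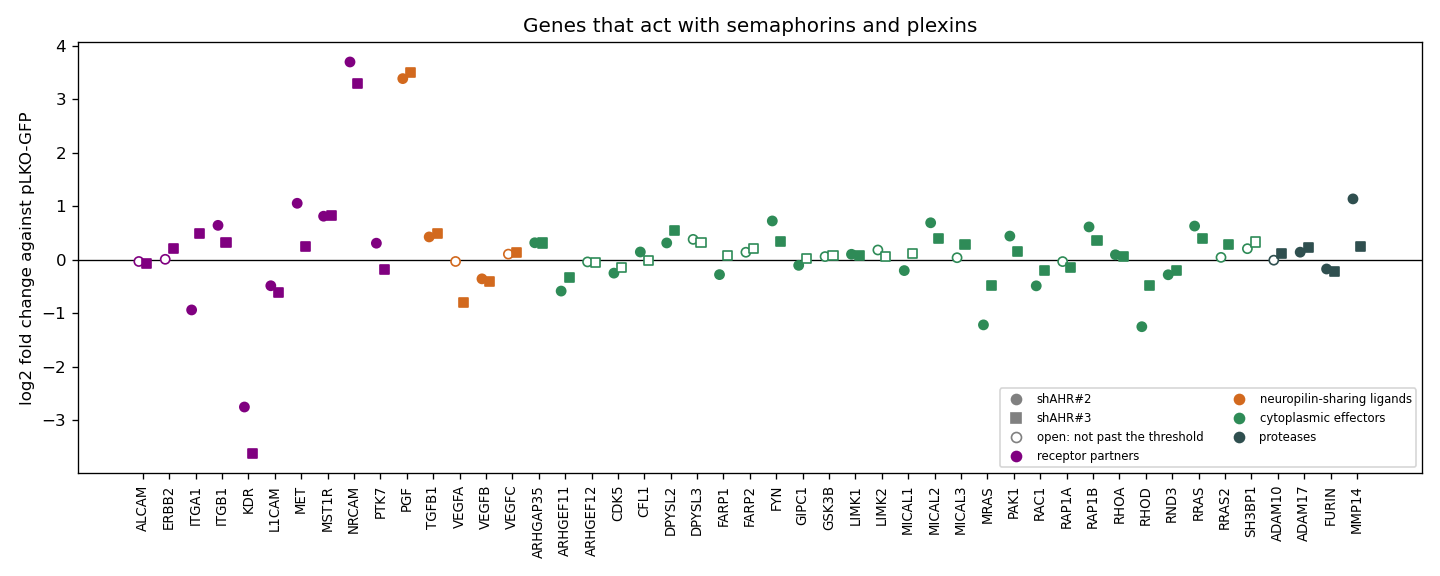
Log2 fold change against pLKO-GFP (y axis) of the 47 tested genes that act with semaphorins and plexins (x axis), with shAHR#2 as circles and shAHR#3 as squares. Colors mark receptor partners, ligands that share neuropilins, cytoplasmic effectors and proteases, and open symbols did not pass an adjusted p of 0.05. NRCAM and PGF stand above 3, KDR below -2, and most effectors lie near 0.

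Since AhR binds DNA, the promoter windows of the members were read for its core motif, GCGTG, on both strands (CACGC on the strand shown). Of 35116 RefSeq windows of 300 bases, 36.5% held it, and of the 48 windows of 27 members 12 did, or 25.0%. By gene this was 9 of 27 members, PLXNA1, PLXNA4, PLXNC1, PLXND1, SEMA3B, SEMA3D, SEMA4A, SEMA4G and SEMA6D, against 40.6% of all genes. The longer form TNGCGTG, which contains the core, stood in 5.51% of all windows and in 6.25% of the members' windows (3 of 48). The windows of PLXND1, which rose with both constructs, of PLXNA4, which changed in opposite directions, and of SEMA3D, which fell with shAHR#3, are shown because they hold more than 1 match, in capitals (RefSeq, GRCh38.p14, minus strand, chr3:129606627-129606926, chr7:132576421-132576720 and chr7:85187007-85187306). The windows of SEMA5A, SEMA4B, SEMA3E and SEMA3C had no match. NRP1, SEMA3A, SEMA6A and SEMA6B were not searched. A match describes the letters only, and no binding was measured.
PLXND1: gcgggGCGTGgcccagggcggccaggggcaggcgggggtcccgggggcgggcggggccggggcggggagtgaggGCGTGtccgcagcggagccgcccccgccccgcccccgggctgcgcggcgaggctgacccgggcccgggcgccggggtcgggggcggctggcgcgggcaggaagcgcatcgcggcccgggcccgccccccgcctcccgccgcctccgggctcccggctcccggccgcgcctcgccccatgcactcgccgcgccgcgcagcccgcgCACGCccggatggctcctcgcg
PLXNA4: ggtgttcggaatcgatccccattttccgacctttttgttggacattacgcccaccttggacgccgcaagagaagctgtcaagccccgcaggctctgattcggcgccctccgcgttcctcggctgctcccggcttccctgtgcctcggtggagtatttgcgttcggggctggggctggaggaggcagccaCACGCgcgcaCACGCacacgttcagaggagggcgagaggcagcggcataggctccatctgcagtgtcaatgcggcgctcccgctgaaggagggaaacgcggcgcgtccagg
SEMA3D: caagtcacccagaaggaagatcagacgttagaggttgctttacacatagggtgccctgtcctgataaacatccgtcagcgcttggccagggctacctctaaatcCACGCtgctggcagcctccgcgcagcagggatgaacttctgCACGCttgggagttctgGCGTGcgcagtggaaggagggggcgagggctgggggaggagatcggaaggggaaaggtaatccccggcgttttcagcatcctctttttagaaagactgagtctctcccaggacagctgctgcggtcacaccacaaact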

How the data were processed

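RNA was sequenced from 9 MDA-MB-231 libraries, 3 per group, made with a stranded mRNA kit and read from a single end. Counts of reads per gene, whole numbers with no normalization, were deposited by the authors after alignment with STAR to GRCh38.p13. The submitters' processing notes also list FastQC, Subread and featureCounts. Annotation release and strand setting are not given in the sources used here, so counts of genes with overlapping exons are uncertain (11 of the 31 members share exon positions with another gene).

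Genes were filtered with edgeR's filterByExpr (minimum count 10, minimum total 15), scaled by TMM and tested with the quasi-likelihood test (edgeR 4.0.16, R 4.3.3) in 1 model over all 9 libraries, with Benjamini-Hochberg adjustment over 14274 genes and a threshold of 0.05. Each standard error is the absolute log2 fold change divided by the root of F. For SEMA5A, SEMA6A and SNHG18, with few reads in the knockdown groups, it is smaller than counting error alone. The common biological coefficient of variation was 2.96%. Counting intervals are exact binomial at 95% and cover counting error only. Exon lengths and positions are from GENCODE release 44, which held all 31 members, and promoters from RefSeq (27 of 31 matched). DESeq2 1.42.0, the study's tool, was an alternative, beside other size factors, filters, thresholds, sample sets, a replicate block, another length and leaving out each library. Members that passed the filter only through the control group get no test against it. Some markers are not reported here. The fit was also run on simulated counts with 200 of 14274 genes changed. Far fewer genes changed there than were called here, so that run does not measure error rates for these data.

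Members, lists and tests were chosen with earlier results of these data known. Values per library are given for members past the threshold with an absolute log2 fold change of at least 1 in any comparison and for the 3 most abundant per length, other members by group means, and list genes with a log2 fold change of at least 1 in either direction.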

Additional observations from a re-analysis of the deposited data

Results flagged for a closer look

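For 21 of the 29 tested members the effect of knockdown differed between the constructs, by the direct test of shAHR#3 against shAHR#2 (edgeR, adjusted p under 0.05). Over all genes 42.3% passed the same test (21.9% higher and 20.4% lower with shAHR#3). With both constructs changed the same way against the control, the log2 difference was 3.86 for SEMA5A, 1.08 for SEMA3E, 0.56 for SEMA3B, 0.47 for SEMA7A, 0.90 for PLXND1, 0.21 for PLXNA2, 0.14 for SEMA3C, -0.27 for PLXNA3, -0.86 for SEMA4B and -0.89 for SEMA3A. Against the control the constructs had called changes of opposite sign for SEMA3F (difference 1.54), PLXNB1 (1.20), PLXNA1 (0.68), PLXNB2 (0.37) and PLXNA4 (-1.33). The fall of SEMA3F with shAHR#2 and the rise of PLXNB2 with shAHR#3 lost their calls in some alternatives. A change was called with shAHR#2 and not with shAHR#3 for SEMA6C (1.35), SEMA6B (0.71), PLXNB3 (-0.39), NRP1 (-0.45) and SEMA3G (-0.67). For SEMA6D, with no test against the control, the difference was 1.42. SEMA5A rested on 2 reads in the shAHR#2 group, and its difference was 3.26 without shAHR#2 replicate 1 and 6.68 without shAHR#2 replicate 3.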

How the results depend on the processing

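No fold change of a member changed direction while called, and 1258 of the 1291 combinations of member, comparison and alternative stayed on the same side of the threshold, with 23 calls lost over 6 genes and 10 gained over 4. All numbers for members in this paragraph include SEMA6A and SEMA6D against the control. The filter admitted both only through the control group, so their kept calls there carry no weight. Counts moved by more than 1.5 times only when a log2 fold change of at least 1 was added. Members then numbered 10 with shAHR#2, 8 with shAHR#3 and 7 between the constructs (26, 23 and 21 without it, with SEMA6A and SEMA6D counted). List genes numbered 7, 3 and 1 (33, 36 and 26). Of all genes, 11.8%, 6.73% and 3.71% passed with that limit and 65.8%, 54.4% and 42.3% without it. Leaving out 1 library gave 24 to 27, 20 to 24 and 19 to 21 members and 30 to 33, 33 to 35 and 25 to 27 list genes. Deviations of same-numbered replicates from their group means correlated by 0.0031 to 0.058, all above 0, and those of different numbers by -0.068 to 0.023. The correlations were weak and not every library correlated best with its own number, so the numbers were not taken as pairs. Adding the replicate number as a block gave 27, 23 and 21 members and 33, 36 and 27 list genes, with SEMA4C gained with shAHR#2 (log2 fold change 0.18, adjusted p = 0.0478) and no other member's call changed. Between the constructs, SEMA3G was lost in DESeq2 (-0.68, adjusted p = 0.0686) and without shAHR#2 replicate 1 or 2 or shAHR#3 replicate 1 (-0.67, -0.63 and -0.57), and SEMA6D without shAHR#2 replicate 1 or 3 or shAHR#3 replicate 1 or 2 (1.12, 1.11, 1.24 and 1.36). SEMA3D with shAHR#2 passed in edgeR without pLKO-GFP replicate 1 (-0.48, adjusted p = 0.0119). It also passed with a filter at a mean of 50 counts and without shAHR#3 replicate 2 or 3 (adjusted p = 0.0474, 0.0472 and 0.0498). SEMA4C with shAHR#2 also passed with only the groups compared (adjusted p = 0.0484) and without pLKO-GFP replicate 3 (adjusted p = 0.0286). The cause was not tested. Per length of the longest transcript NRP1, SEMA3C and PLXNA1 kept ranks 1 to 3 in the control group (103, 52.3 and 35.7 RPKM), but with shAHR#3 the order of NRP1 and SEMA3C turned (104 and 84.4 RPKM, against 53.3 and 67.4 per union of exons). Depth limits SEMA5A, SEMA6A and SEMA6D, with under 20 reads in each library of at least 1 group.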
